A study of Mus musculus with 22 samples.

Results

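The E2F and RB family genes comprise 10 genes that were taken by name as the family and partners of E2F3a: the activator E2F genes E2f1, E2f2 and E2f3, the atypical repressors E2f7 and E2f8, the pocket protein genes Rb1, Rbl1 and Rbl2, and the dimer partner genes Tfdp1 and Tfdp2. They were 10 of 21887 protein-coding genes on the assembled chromosomes of the mouse annotation used here. A peak was counted for a gene when it overlapped the gene or lay within 1 kb of it, and a differential site when the authors' annotation named the gene. E2F3a occupancy was measured by CUT&RUN, in which an antibody tethers a nuclease that releases the DNA beneath the bound protein, in nuclei from punches of the nucleus accumbens, a striatal region of reward processing. Wildtype C57BL/6J mice of both sexes were injected intraperitoneally with saline or with cocaine at 20 mg/kg on each of 7 days and stayed in their home cages. The E2F3a libraries numbered 7 for cocaine (2 female, 5 male) and 4 for saline (2 female, 2 male). Peaks were called once for each treatment from females and males together, 3467 for cocaine and 725 for saline, so the presence of a peak has no replicate error. Their table of differential sites gives values for 6 cocaine and 4 saline libraries. Total depth is not known from these files, nuclei of all cell types were profiled together, and the IgG libraries were not analysed here. Coordinates are mm10.

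E2F proteins bind DNA as dimers with a DP protein, encoded by Tfdp1 or Tfdp2, and switch on genes for entry into S phase. The pocket proteins pRB (Rb1), p107 (Rbl1) and p130 (Rbl2) hold E2F proteins in check until cyclin-dependent kinases phosphorylate them. E2F7 and E2F8 bind DNA without a DP partner and repress E2F targets, and several genes of the family, E2f1 and Rbl1 among them, are themselves known E2F targets. E2F3a and the shorter E2F3b are made from separate promoters of E2f3. In the adult brain most neurons no longer divide, and E2F and RB proteins are known there also for roles in neuronal survival and differentiation.

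In the cocaine list, E2f1 and Rbl1 carried a peak at the 5′ end of the gene, and Rbl1 carried a second, weaker peak inside the gene. None of the 10 genes carried a saline peak, and none was named at a differential site. By the same rules, 9.79% of all protein-coding genes had a cocaine peak, 1.85% a saline peak and 2.76% a site. The promoter of Rbl1 is shown first, because its whole window lay inside the cocaine peak. The window (chr2:157204485-157204784, minus strand, GRCm38.p6, RefSeq) runs from 250 bases before to 50 bases after the annotated start, and capitals mark a match to the E2F motif.
Rbl1 promoter: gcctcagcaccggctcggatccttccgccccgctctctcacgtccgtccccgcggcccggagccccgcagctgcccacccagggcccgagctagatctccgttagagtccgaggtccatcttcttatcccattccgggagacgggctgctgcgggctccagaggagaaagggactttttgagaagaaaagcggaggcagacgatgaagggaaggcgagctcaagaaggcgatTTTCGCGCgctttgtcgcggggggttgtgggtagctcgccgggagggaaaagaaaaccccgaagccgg

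For E2f1 the RefSeq promoter table holds a start inside the gene, and 193 bases of its window (chr2:154569484-154569676, minus strand, GRCm38.p6) lay inside the cocaine peak. They are shown because they are the stretch of that peak the table covers, and they hold no match to the motif. The summit of the peak lay outside this stretch.
E2f1 peak, part: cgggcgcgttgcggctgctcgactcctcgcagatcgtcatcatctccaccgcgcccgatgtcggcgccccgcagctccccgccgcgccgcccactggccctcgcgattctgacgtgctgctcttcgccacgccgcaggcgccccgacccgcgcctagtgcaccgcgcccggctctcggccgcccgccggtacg

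Among the activator E2F genes, E2f1 (chromosome 2, 154559400 to 154569892, minus strand) had 1 cocaine peak of 390 bp, at 154569484 to 154569873. The peak covered positions 19 to 408 bp downstream of the gene's annotated 5′ end, with its summit at 84 bp, so it lay wholly within the gene as annotated. Its fold enrichment over the background of the peak caller was 7.73 and its −log10 q was 11.2, both the authors' values for the peak. That fold exceeded 89.5% of the cocaine peaks, whose median was 4.88, and the peak stood at place 363 by fold and 893 by q. The nearest saline peak was 1213.4 kb from the gene.

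E2f2 (chromosome 4, 136172274 to 136196057) had no peak within 1 kb, and it was the gene nearest to that limit on the outside. A cocaine peak of 4.91-fold (136162942 to 136163361) lay 8.9 kb upstream of it, close to the list's median in fold but with a −log10 q of 3.99, higher than 23.0% of the list. No other gene lay within 1 kb of that peak. E2f3, which encodes E2F3a itself (chromosome 13, 29906575 to 29986064), had neither a peak nor a site, and its nearest cocaine and saline peaks were 834.7 kb and 1550.1 kb away. Among the 10 genes, this cocaine distance was the longest.

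Of the atypical repressors, E2f8 (chromosome 7, 48866429 to 48882073) had its nearest cocaine peak at 64.0 kb and E2f7 (chromosome 10, 110745439 to 110787384) at 728.9 kb. The E2f8 neighbour had a fold of 9.27 and the E2f7 neighbour one of 2.40. The nearest saline peaks were 4016.5 kb from E2f8 and 7001.6 kb from E2f7, and the latter was the longest saline distance in the family.

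Of the pocket protein genes, Rbl1 (chromosome 2, 157145893 to 157204534, minus strand) had 2 cocaine peaks. The peak at its 5′ end (157204346 to 157205016, 671 bp) had its summit 118 bp upstream of the start, a fold of 9.57 and a −log10 q of 15.1. It exceeded 95.2% of the cocaine list in fold, at place 163, and it was wider than the list's median peak of 487 bp. The second peak (157165784 to 157166112, 329 bp) had its summit 38.5 kb downstream of the start, inside the gene, with a fold of 4.27 and a −log10 q of 3.56, and 28.6% of the list had a lower fold. The nearest saline peak was 3799.9 kb from the gene.

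**Figure D1:**
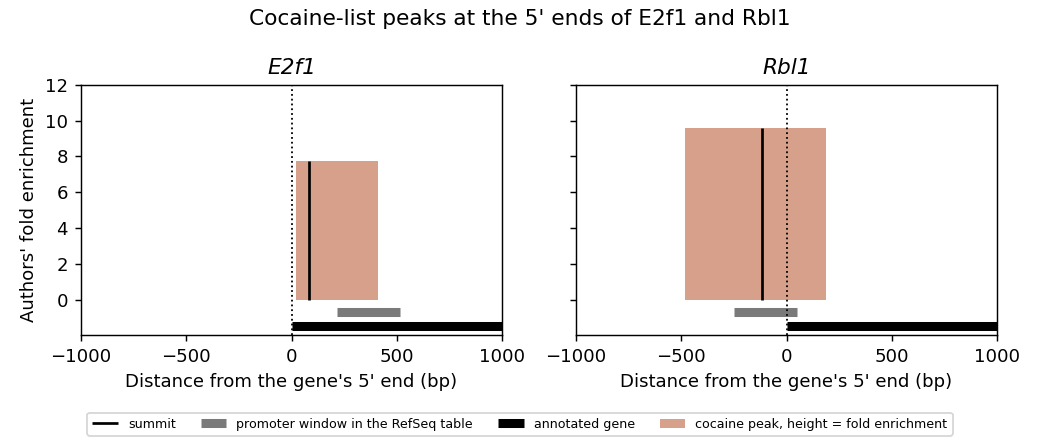
The cocaine peaks at the 5′ ends of E2f1 and Rbl1, drawn as bars whose width is the peak and whose height is the authors' fold enrichment, against distance in bp from the annotated 5′ end. Lines mark the summits, and horizontal bars the gene and the promoter window of the RefSeq table. The E2f1 peak lies inside the gene with its summit at 84 bp, and the Rbl1 peak spans the start with its summit 118 bp upstream.

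Rb1 and Rbl2 had no peak. Rb1 (chromosome 14, 73192858 to 73325951) was the member closest to a saline peak, at 40.3 kb (5.16-fold), and the only one of the 10 for which the saline peak was nearer than the cocaine peak, at 108.1 kb (5.31-fold). Rbl2 (chromosome 8, 91070057 to 91123844) lay 189.6 kb from a cocaine peak and 3710.5 kb from a saline peak. The partner genes had none either. Tfdp1 (chromosome 8, 13338725 to 13378448) lay 268.2 kb and Tfdp2 (chromosome 9, 96196246 to 96323646) 760.0 kb from the nearest cocaine peak, and the saline peaks were 3647.0 kb and 2990.1 kb away.

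**Figure D2:**
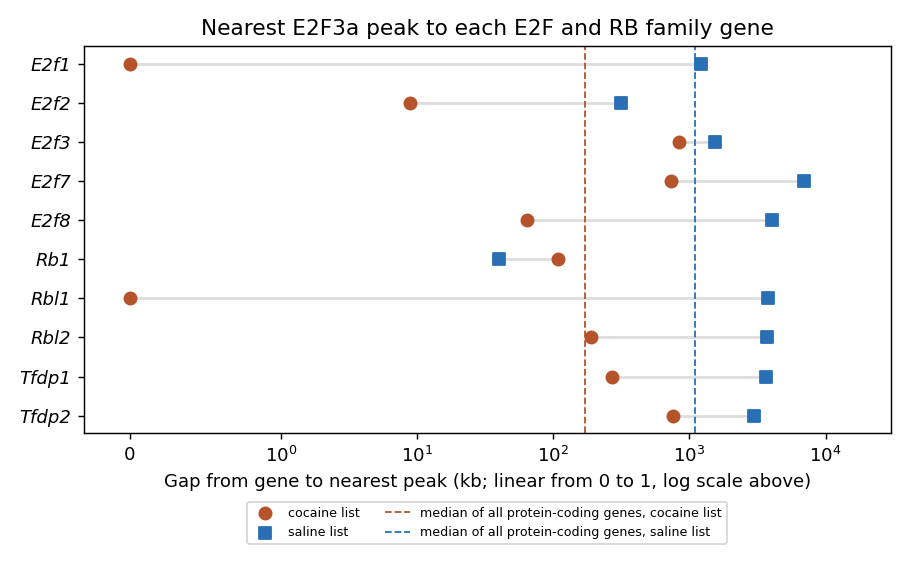
Gap in kb from each of the 10 genes to the nearest peak of the cocaine list (circles) and of the saline list (squares), linear from 0 to 1 and on a log scale above, with dashed lines at the medians of all protein-coding genes. E2f1 and Rbl1 sit at 0 kb in the cocaine list, the other 8 genes lie 8.9 to 834.7 kb away, and Rb1 alone has its saline peak nearer.

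The count of genes with a cocaine peak was 2 of 10, and 9.79% of all protein-coding genes met the same rule in the cocaine list. For the saline list the count was 0 of 10, with 1.85% of all protein-coding genes. With 10 genes, a share moves in large steps, and no difference from the other genes was tested. The median length of the members was 47.9 kb, against 17.2 kb for all protein-coding genes, and a longer gene offers more sequence for a peak to overlap. Of the genes with a cocaine peak, Rbl1 had 58.6 kb and E2f1 10.5 kb, so Rbl1 lay above and E2f1 below the median of all genes. The part of length in the counts was not tested. By the promoter windows alone, which all have 300 bases, 2 of the 9 members in the RefSeq table overlapped a cocaine peak, and 3.62% of all genes in that table did.

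The median gap to the nearest cocaine peak was 148.9 kb over the members and 170.6 kb over all protein-coding genes. For the saline list it was 3318.5 kb over the members and 1099.0 kb over all. The saline list was shorter by 2742 peaks. With the cocaine list trimmed to its 725 peaks of smallest q, the median gap was 1309.2 kb over the members and 1065.3 kb over all genes, Rbl1 kept its 5′ peak and E2f1 had none. At 725 peaks each, Rbl1 had a peak in the cocaine list alone and E2f1 in neither list. Of all protein-coding genes, 2.12% had a peak within 1 kb in the trimmed cocaine list. Whether the absence of a saline peak at these genes reflects treatment, depth or list length was not tested. No test between treatments can be made from 1 pooled list each.

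Both 5′ peaks were strong for peaks at gene starts. Of the cocaine peaks, 981 had a summit within 1 kb of a start in the promoter table, with a median fold of 5.30. The E2f1 peak exceeded 84.6% of them and the Rbl1 peak 92.7%. The inner Rbl1 peak lay below the median of the whole list.

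**Figure D3:**
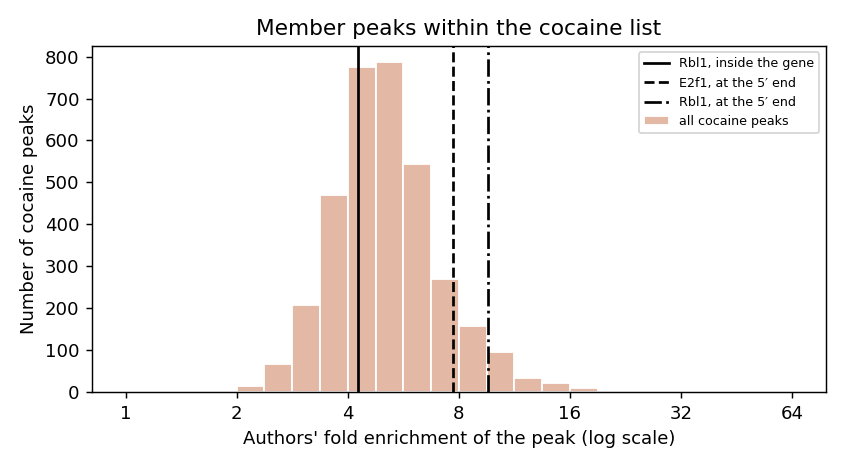
Histogram of the authors' fold enrichment (log scale) over the 3467 cocaine peaks, with vertical lines at the 3 peaks of E2f1 and Rbl1. The lines at 7.73 and 9.57 mark the 5′ peaks in the upper part of the list, and the line at 4.27 marks the inner Rbl1 peak below the median of 4.88.

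The differential sites addressed where E2F3a signal differed between cocaine and saline libraries. At an adjusted p below 0.05 in the authors' deposited table, 947 of the 956 listed sites passed, and 0 of the 10 genes were named at one, whereas 2.76% of all protein-coding genes were. None of the 10 was named at the other listed sites either. None had a passing site within 1 kb, where 2.51% of the 20665 protein-coding genes on chromosomes with a site did. The 3 peaks at E2f1 and Rbl1 overlapped no listed site. The share of all cocaine peaks that overlap a site is not given here, so this is not read as particular to these peaks. The table holds values for its listed sites alone and so none for these genes, and the size and error of any difference at them are not known.

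The nearest sites were far from most members. Tfdp1 had the closest, 179.5 kb away and named for Lamp1, with a log2 fold change of 0.98 in the authors' deposited table. E2f3 followed, with a site named for Mboat1 at 267.7 kb and a log2 fold change of 1.57 in the authors' deposited table. For the other 8 genes the gap ran from 787.1 kb at E2f1 to 2791.6 kb at Rbl2. The median over the members was 1596.3 kb, and over the 20665 protein-coding genes on chromosomes with a site it was 852.3 kb.

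The E2F motif was searched in the promoter windows of RefSeq (GRCm38.p6) in its 4 forms TTTCCCGC, TTTCGCGC, TTTGCCGC and TTTGGCGC, on both strands. Matches on opposite strands can overlap, but no member window held more than 1 match. Of the 10 members, 9 had a window in the table, 13 windows in all, and Rb1 had none. The motif stood in 6 windows of 5 genes: E2f2, E2f3, E2f7, Rbl1 and Tfdp1. Both Tfdp1 windows share 1 match. Of all 32851 promoter windows, 2.26% held it, as did 8.17% of the 1102 windows that overlapped a cocaine peak and 9.77% of the 174 that overlapped a saline peak. A match is a description of the letters and not a binding site.

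The matches are shown with their surroundings so that the peak-bearing Rbl1 promoter can be compared with the promoters of the family that hold the motif and carry no peak. Each line gives 40 bases of the gene's own strand with the match in capitals. A match that starts with GCG is the motif on the opposite strand.
E2f2, chr4:136172284-136172323: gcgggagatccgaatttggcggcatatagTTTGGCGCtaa
E2f3, chr13:29986051-29986090: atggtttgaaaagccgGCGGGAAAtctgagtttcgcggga
E2f7, chr10:110745225-110745264: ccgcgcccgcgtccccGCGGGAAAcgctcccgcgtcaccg
Rbl1, chr2:157204529-157204568: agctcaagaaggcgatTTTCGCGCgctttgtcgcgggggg
Tfdp1, chr8:13338692-13338731: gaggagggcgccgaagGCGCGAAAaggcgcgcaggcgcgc

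The E2f3 and E2f7 matches had the same 8 letters, and those of E2f2 and Rbl1 lay on the gene's own strand. In Rbl1 the match began 18 bp and in E2f3 11 bp upstream of the start. It began 198 bp upstream in E2f7 and 43 bp upstream of the first listed start in Tfdp1. In E2f2 it lay downstream of the first of its 2 listed starts. The E2f3 match belonged to the upstream start of that gene, and the window of the downstream start held none. The other member windows, those of E2f1, E2f8, Rbl2, Tfdp2 and the second start of E2f2, held no match, which says only that these letters are not in those windows. The windows of E2f1, E2f8 and Tfdp2 did not reach the 5′ end of the gene as annotated, so the letters there were not searched. Of the 5 genes with the motif only Rbl1 had a cocaine peak. Of all genes with promoter windows, 704 held the motif, 84 of them in a window that overlapped a cocaine peak. The windows that overlapped a cocaine peak had GC contents of 64.0% at Rbl1 and 77.3% at E2f1, against a median of 62.3% for all windows overlapping a cocaine peak and 52.7% for all windows. Windows of members without a peak ran from 39.3% at Tfdp2 to 80.7% at Tfdp1, a range that includes the Rbl1 and E2f1 values. The part of GC content was not tested.

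**Figure D4:**
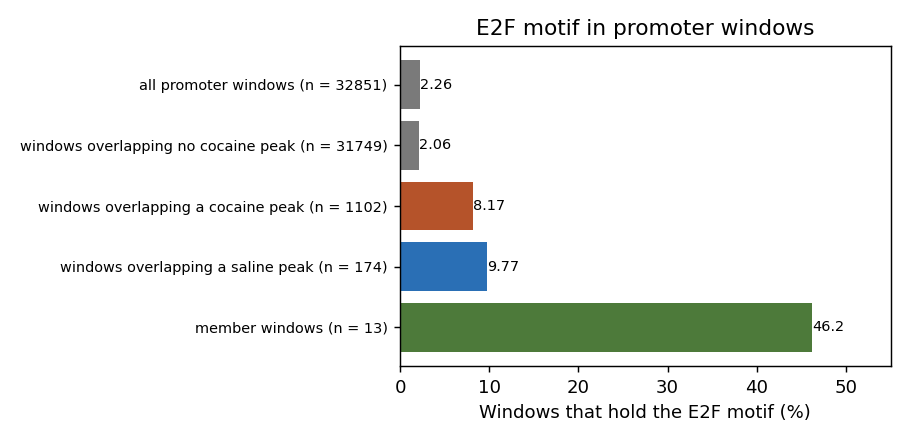
Share in percent of promoter windows of 300 bases that hold the E2F motif on either strand, for all windows, for windows without or with a cocaine peak, for windows with a saline peak and for the 13 member windows. The member share is 46.2%, and the share is 2.26% over all windows and 8.17% over windows with a cocaine peak.

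The wider pathway was followed in 30 further genes. They were the remaining E2F genes, genes linked to the DREAM and MuvB complexes, RB kinases with their cyclins and inhibitors, and partners of pRB. Hcfc1, Skp2 and Ccnf were included as genes that act on E2F or RB proteins. A cocaine peak lay at 4 of the 30 (13.3%), a saline peak at 2 (6.67%) and a differential site at 1 (3.33%), beside the shares of all protein-coding genes given above. E2f4, E2f5 and E2f6 had none. Of the 7 DREAM and MuvB genes, Lin52, a MuvB subunit, had a cocaine peak of 7.38-fold and Rbbp4, a histone chaperone shared with other complexes, one of 2.97-fold. Both peaks also lay within 1 kb of another gene. Arid4a, an RB-binding protein, had one of 4.30-fold, also within 1 kb of another gene. Hcfc1, a coregulator that E2F proteins recruit, was the only one of these and the family genes with a peak in both lists, 7.95-fold in the cocaine list and 4.28-fold in the saline list, at its 5′ end. Its peaks are values of separate lists, and a difference in fold between lists shows no change. None of the 9 RB kinase and cyclin genes had a cocaine peak, where 9.79% of all protein-coding genes had one. Ccna2, the S phase cyclin A2, had a saline peak of 5.21-fold and its nearest cocaine peak 89.0 kb away, with Bbs7 also within 1 kb of the saline peak.

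**Figure D5:**
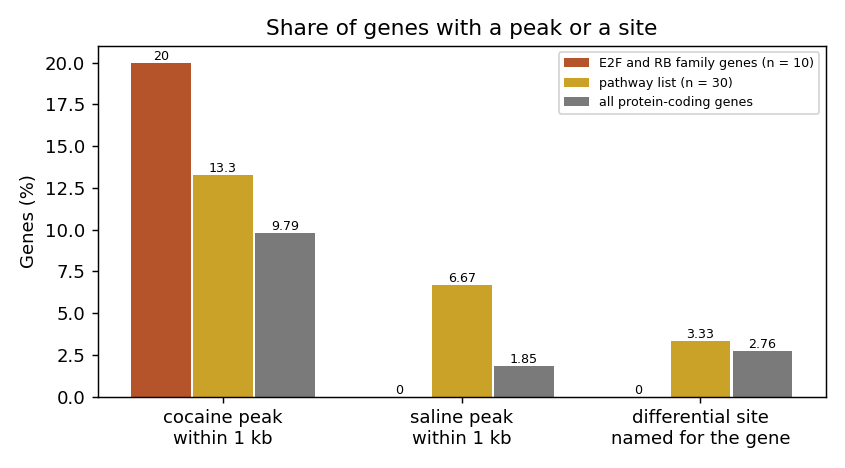
Share in percent of the 10 E2F and RB family genes, of the 30 pathway genes and of all protein-coding genes that had a cocaine peak within 1 kb, a saline peak within 1 kb or a differential site named for the gene. The member bars are 20.0%, 0% and 0%, where the shares of all genes are 9.79%, 1.85% and 2.76%.

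The single differential site of the pathway genes was named for Cdkn1a, which encodes the kinase inhibitor p21. It lay 1480 bp beyond the end of the gene (chromosome 17, 29102202 to 29103200). It overlapped part of a cocaine peak of 5.83-fold (29101808 to 29102425), whose summit at 29102200 lay just outside the site. Further cocaine peaks of 4.57-, 5.47- and 3.79-fold lay 3683, 5134 and 6557 bp beyond the gene. The last of these overlapped another listed site, not named for Cdkn1a. The normalized counts of the 6 cocaine libraries, in the order of the table, were 12.18, 1.04, 18.11, 22.04, 66.38 and 37.62. Those of the 4 saline libraries were 9.78, 13.35, 13.05 and 20.67. Cocaine 5 and 6 were the highest of all, cocaine 2 was the lowest, and the groups overlapped. The cocaine mean was 26.2 ± 23.1 (SD, n = 6), and the saline mean was 14.2 ± 4.60 (SD, n = 4). The authors' deposited table gives a log2 fold change of 0.88 with an adjusted p of 0.0039 from their negative binomial test. A two-sided exact permutation test over the 210 splits of these libraries gave p = 0.39, where the smallest p the design allows is 0.0095. The authors had chosen the site with these same libraries, so the permutation p describes overlap and is no independent check of their result. The log2 ratio of the means was 0.88 with all libraries and 0.36 without cocaine 5, the highest value here. Leaving out the highest cocaine value can only lower the ratio, so this is no check of the difference. The authors' enrichment over background was 0.67 in cocaine and 0.70 in saline.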

How the data were processed

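Peaks come from lists that the authors made with MACS on both sexes together, per the file headers and peak names. They hold a fold enrichment (a ratio) and the −log10 of q per peak, all as deposited, with a largest q of 0.01. The differential sites come from diffReps with a negative binomial test, per the file names. The authors deposited the log2 fold change, the p-value and adjusted p-value, the mean signal per group, an enrichment ratio and a normalized count for each library without library names. The build is mm10, per the submitters' processing notes, and the sources used here give no aligner, settings or versions. In 2 IgG samples the title and treatment label differ, so they were left unassigned.

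Genes and promoter sequences were those of RefSeq for GRCm38.p6, the assembly behind mm10, and all 10 members and all 30 pathway genes were matched by symbol. The promoter table covers 3332 of the 3467 cocaine peaks by chromosome. Gaps, overlaps and motif matches were computed in Python 3.11.15 with pandas 2.3.3, numpy 2.4.6 and SciPy 1.17.1, on 1-based coordinates, and the routines were tested on simulated data. The permutation test compared group means. It measures the spread between libraries, which the labels do not tie to separate animals, and the authors had chosen the site with these very libraries. Every member is described, and so is every pathway gene with a peak or site. The members, lists and tests were chosen with earlier results of these data known.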

Additional observations from a re-analysis of the deposited data

How the results depend on the processing

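The count of 2 members with a cocaine peak was the same with overlap of the gene alone, within 5 kb, with the summit alone, near annotated 5′ ends, at q 0.001 and at a fold of at least 5, each time E2f1 and Rbl1. It was 3 within 10 kb, where E2f2 joined. In an alternative added after the data were examined, with as many cocaine peaks as saline peaks, it was 1 (Rbl1), by construction from fewer peaks. In that trimmed list 2.12% of all protein-coding genes had a peak. For the other cocaine peak alternatives the share of all genes is not given here, so those counts are not read as particular to the family. The counts of members with a saline peak, member cocaine peaks shared with saline and members with a site were 0 under each alternative tried. These were the same gene and peak rules for saline, and 50% reciprocal overlap or the trimmed list for sharing. For sites they were position, an adjusted p below 0.01, all listed sites or a log2 fold change of 1 or more either way. The share of all cocaine peaks that overlap a saline peak is not given here, so 0 shared peaks is not read as particular to these genes. With 2 T in place of 3 in the motif, also added later, 6 members held it, where 5 did, and 10.9% of all genes in the table.

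Alternatives at member sites could not be run because no member had a site, and were applied to the Cdkn1a site. The log2 ratio there was 0.88 with all libraries, 0.27 on log2(count + 1), and 0.36 to 1.14 with each library left out in turn. It was lowest without cocaine 5, the highest cocaine count, whose removal can only lower the ratio. Without cocaine 5 and 6, chosen for the largest smallest count among the cocaine libraries over all listed sites, it was -0.09. They also have the highest values at this site and no saline library was left out with them, so a lower ratio follows from the choice and is no check of the difference. No paired analysis was possible because the library values carry no replicate numbers. Depth behind the peak lists is unknown, so a missing peak shows only that none was called.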
